A study of Mus musculus with 26 samples.

Results

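The alpha and beta tubulin isotypes were followed in adult mouse testis as 10 genes, chosen by name from the 51124 genes of the expression table. They are 6 alpha tubulin genes (*Tuba1a*, *Tuba1b*, *Tuba3a*, *Tuba3b*, *Tuba4a* and *Tuba8*) and 4 beta tubulin genes (*Tubb2a*, *Tubb3*, *Tubb4b* and *Tubb5*). Total RNA from whole adult testes was sequenced from 6 libraries, 2 from each of 3 genotypes, and each library came from a different mouse. N1 and N2 were wild type (*WT*). N3 and N4 were from *10xPerf* mice, in which the 3′UTR of *Ythdc2* holds 10 tandem sites, each fully complementary to a single pachytene piRNA named piR-A. N5 and N6 were from *10xBulge* mice, in which the 10 sites at the same place are mismatched to the piRNA where a PIWI protein would cut. Both lines were made by CRISPR/Cas9 targeting in the B6D2F1/J hybrid background and were bred as homozygotes. As the samples are whole testes, fewer cells of a type and less RNA per cell cannot be told apart in any value given here.

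Alpha and beta tubulin form the heterodimer from which microtubules are built. Male germ cells use microtubules in the mitotic and meiotic spindles, in the manchette that shapes the head of the elongating spermatid, and in the axoneme of the sperm tail. Sertoli cells, the somatic cells that nurse the germ cells, also hold dense microtubule arrays. The isotypes differ mainly in their last residues, the C-terminal tail, which protrudes from the microtubule. Enzymes add glutamate or glycine chains to this tail, and on alpha tubulin they remove and restore the final tyrosine.

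The end of the coding sequence shows how the members differ at that tail. The sequences are from RefSeq on GRCm38.p6, 5′ to 3′ along the coding strand, and run for 30 bases to the stop codon. Capitals mark the last codon before the stop. The ends of 4 alpha tubulin genes are shown because *Tuba4a* and *Tuba8* lack the terminal TAC, the tyrosine codon that the other 4 carry.

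Tuba3a: gcagaggcagaagaaggggaggagTACtga
Tuba3b: gcagaggcagaagaaggggaggagTACtga
Tuba4a: tatgaggacgaggatgagggagaaGAGtag
Tuba8: gaagaagagaatgagggggaggaaTTTtaa

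The beta tubulin ends are shown because their tails are further apart, and none of them ends with the tyrosine codon.

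Tubb2a: gaggaggaggagggtgaagatgagGCTtga
Tubb3: gaggaatcggaagcccaggggcccAAGtga
Tubb4b: gaggaggaggctgaggaggaggtgGCTtag
Tubb5: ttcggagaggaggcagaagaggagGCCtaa

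The coding starts are nearly shared. Nascent tubulin chains are recognised by their first residues when cells destroy tubulin mRNA in response to free tubulin. The first 12 bases are given for 1 alpha and 1 beta gene, with the codons after the start codon in capitals.

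Tuba3a: atgCGTGAGTGT
Tubb4b: atgAGGGAGATC

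The 6 alpha genes lie on 3 chromosomes of GRCm38.p6. *Tuba1a* (chr15:98949847-98953501) and *Tuba1b* (chr15:98931429-98934390) are neighbours on the minus strand. *Tuba3a* (chr6:125278270-125286081, minus strand), *Tuba3b* (chr6:145615963-145621477, plus strand) and *Tuba8* (chr6:121210734-121226098, plus strand) share a chromosome. *Tuba4a* is at chr1:75214972-75221261 on the minus strand. The beta genes are *Tubb2a* (chr13:34074278-34078008, minus strand), *Tubb3* (chr8:123411553-123422015, plus strand), *Tubb4b* (chr2:25222158-25224702, minus strand) and *Tubb5* (chr17:35833920-35838301, minus strand).

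Coding sequences were 98.3% identical between *Tuba1a* and *Tuba1b* and 97.0% between *Tuba3a* and *Tuba3b*. Over all 15 pairs of alpha members the identity ranged from 78.8% to 98.3% with a median of 83.5%, and over the 6 beta pairs from 81.2% to 84.5%. This bears on how reads are assigned. In the longest coding transcript, the share of 100-base windows also found in another gene was 65.1% for *Tuba1a*, 69.5% for *Tuba1b*, 36.9% for *Tubb2a*, 29.2% for *Tubb4b*, 12.3% for *Tuba3a* and 11.8% for *Tuba3b*. No window was shared for *Tuba4a*, *Tuba8*, *Tubb3* or *Tubb5*. The values of *Tuba1a* and *Tuba1b* are the least certain in this respect, as both share windows with *Tuba1c*, with each other and with several predicted genes such as *Gm49450* and *Gm17383*. *Tuba1c* held 594 of the 1704 windows of *Tuba1a* and 799 of the 1644 windows of *Tuba1b*.

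The libraries held roughly 41.1 to 61.6 M reads, estimated from the most frequent low value in each, taken as the worth of 1 read. On that basis, 3 reads were worth between 2.73 and 3.63 normalized counts. Values are the deposited counts per gene after normalization between libraries. Log2 fold changes are on the log2(value + 1) scale, on which changes of low genes are understated, and were fitted with limma over the 23782 genes that reached 10 normalized counts in 2 or more libraries. All 10 members passed this filter. A gene was called at a Benjamini-Hochberg adjusted p under 0.1. The ratio of N1 to N2 followed the GC content of the transcripts (Spearman's rho 0.615 over 12426 genes, given as a description), as did that of N5 to N6 (0.518), while that of N3 to N4 went the other way (-0.242). The members' transcripts have 52% to 57.9% GC against a median of 49.6% over those genes. All 10 members were higher in N1 than in N2, by 0.25 to 1.23 on the log2 scale, and 9 of 10 were higher in N5 than in N6. All 10 were lower in N3 than in N4, by 0.16 to 0.83.

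**Figure D1:**
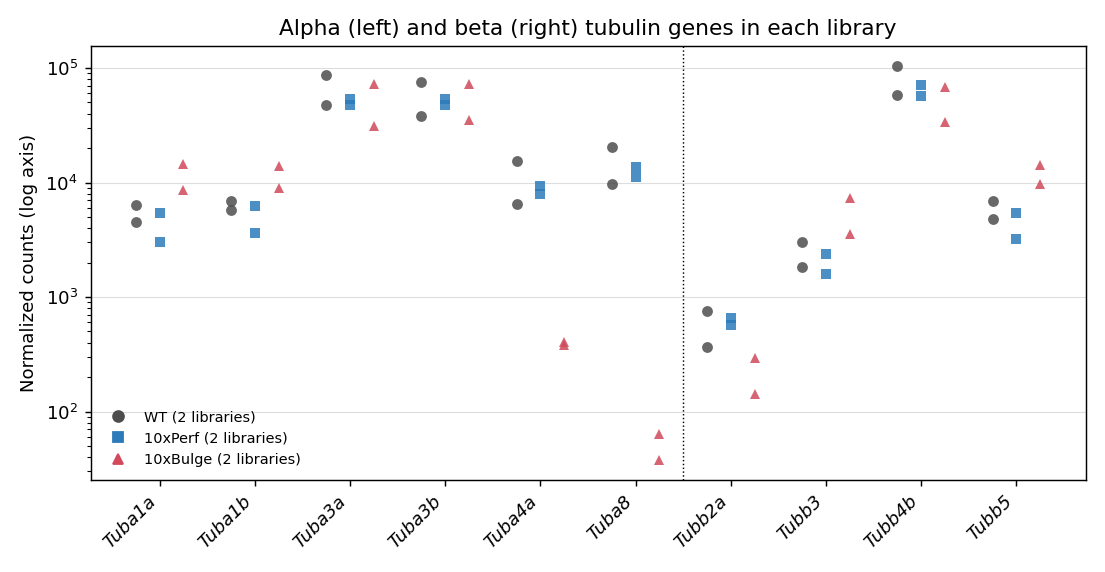
Normalized counts (log axis) of the 6 alpha tubulin genes, left of the dotted line, and the 4 beta tubulin genes, right of it. Each point is 1 library, with 2 libraries for each genotype. The *10xBulge* points of *Tuba8* (63.4 and 37.7) and *Tuba4a* (384 and 403) lie far below the others, and those of *Tuba1a*, *Tuba1b*, *Tubb3* and *Tubb5* lie above them.

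In wild type, levels per kilobase of transcript were dominated by 3 genes. *Tubb4b*, the main beta tubulin of cilia and flagella, had 65603 normalized counts per kb in N1 and 36058 in N2. *Tuba3a*, an alpha tubulin of the testis, had 57154 and 31545, and its near-copy *Tuba3b* had 42101 and 21622. These 3 overlapped in their ranges over the libraries and were separated from the rest. *Tuba8*, an alpha tubulin of testis and striated muscle, followed with 9001 and 4304 per kb. *Tuba4a* (5404 and 2298), *Tuba1b* (3917 and 3298), *Tuba1a* (3522 and 2504) and *Tubb5* (2614 and 1819) came next, each overlapping its neighbour. *Tubb3*, known as the neuronal beta tubulin and also made in Sertoli cells, had 1603 and 984. *Tubb2a*, a beta tubulin abundant in brain, was lowest with 471 and 229 per kb. In *10xPerf* the order of the means was the same for all 10 genes.

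In *10xBulge* the order was different. *Tuba3a* (48307 in N5 and 20780 in N6), *Tubb4b* (42389 and 21199) and *Tuba3b* (41127 and 19768) stayed highest and overlapped. *Tuba1b* (7994 and 5180 per kb), *Tuba1a* (8121 and 4816), *Tubb5* (5349 and 3662) and *Tubb3* (3938 and 1889) came next, each overlapping its neighbour. *Tuba8* went from rank 4 to rank 10, with 28.0 and 16.7 per kb, and *Tuba4a* from rank 5 to rank 8, with 135 and 142.

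The comparison of *10xPerf* with wild type asks how testis RNA differs when *Ythdc2* carries 10 fully complementary sites. No tubulin gene passed the test. Of the 10 members, 0 were called higher and 0 lower in limma, where 0.467% of all genes were called higher and 0.492% lower. At an unadjusted p under 0.05 the count was also 0, with no share of all genes given at that threshold. The members' log2 fold changes ran from -0.48 for *Tubb5* (standard error 0.45) to 0.20 for *Tubb2a* (standard error 0.52), with a median of -0.28 beside 0.0176 over all genes. All 10 overlapped between the genotypes, where 20.2% of all genes were higher and 19.8% lower without overlap. *Tubb4b*, as an example, had 104834 and 57621 normalized counts for the *WT* pair and 56637 and 70973 in *10xPerf*. With 2 libraries a genotype, the 95% confidence intervals of the members reached as low as -1.58 (*Tuba3a*) and as high as 1.36 (*Tubb2a*). Changes inside the interval of a given gene are not excluded for that gene. In an exact permutation test 2 libraries against 2 cannot give a p below 0.33.

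The comparison of *10xBulge* with wild type asks the same of the mismatched sites. *Tuba8* and *Tuba4a* fell by far more than the other members, *Tubb2a* fell to a smaller extent, and no member was called higher as deposited, though 4 were under 2 other scalings given further on. Among the 10 members 3 were called lower and 0 higher in limma, against 23.0% of all genes called lower and 11.4% called higher. At an unadjusted p under 0.05 there were 3 lower and 3 higher. The share of all genes at that threshold is not given here, so these counts have no background. Without regard to the test, 4 members were higher and 3 lower with no overlap between the libraries, against 28.9% and 33.2% of all genes. The median log2 fold change of the members was -0.25, beside -0.0257 over all genes.

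*Tuba8* measured 20368 and 9741 normalized counts for the *WT* pair, 11086 and 13531 for the *10xPerf* pair, and 63.4 and 37.7 for the *10xBulge* pair. Both *10xBulge* libraries lay far below every other library, but above the 3-read floor of 2.73 and 2.9 in those libraries. The *WT* mean of 15054 ± 7515 (SD, n = 2) compared with 50.6 ± 18.2 (SD, n = 2) for *10xBulge*. Its log2 fold change was -8.14 (standard error 0.48, limma adjusted p = 6.1e-06), which is 282-fold lower.

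*Tuba4a*, whose alpha tubulin is encoded without the C-terminal tyrosine, had 15346 and 6527 normalized counts for the *WT* pair, 7860 and 9361 for the *10xPerf* pair, and 384 and 403 for the *10xBulge* pair. The *10xBulge* pair was the tightest of the members, and both lay below all 4 other libraries. Against wild type this was a log2 fold change of -4.66 (standard error 0.47, limma adjusted p = 7.69e-05), or 25.4-fold lower. *Tuba4a* and *Tuba8* kept their calls when any of the 6 libraries was left out and in each of the 12 other settings. They are the 2 alpha members without a terminal TAC, and both are free of windows shared with other genes.

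*Tubb2a* had 758 and 369 normalized counts for the *WT* pair, 566 and 653 for the *10xPerf* pair, and 293 and 141 for the *10xBulge* pair. The groups did not overlap, but the highest *10xBulge* value was close to the lowest wild-type value. The log2 fold change was -1.38 (standard error 0.52, limma adjusted p = 0.0812). The call was lost without N1, where the log2 fold change was -0.86 (limma adjusted p = 0.398), without N3 (0.166), without N4 (0.168) and without N6 (0.28). It was also lost with library totals (0.128), with genes kept from 1 normalized count in 1 library (0.111), with only both genotypes fitted (0.169), with no mean-variance trend (0.116) and at an adjusted p under 0.05.

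*Tuba1a*, *Tuba1b*, *Tubb5* and *Tubb3* were above wild type in both *10xBulge* libraries without passing the test. *Tuba1a*, a main alpha tubulin of neurons and of many dividing cells, had 6350 and 4515 normalized counts for the *WT* pair, 3041 and 5422 for the *10xPerf* pair, and 14642 and 8683 for the *10xBulge* pair. *Tuba1b*, the common alpha tubulin of most cells, had 6828 and 5748, 3612 and 6268, and 13934 and 9029 in the same order. For both genes each *10xBulge* library was above all 4 others.

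*Tubb5*, the common beta tubulin of dividing cells, had 6925 and 4819 normalized counts for the *WT* pair, 3204 and 5369 for the *10xPerf* pair, and 14170 and 9702 for the *10xBulge* pair. *Tubb3* had 2995 and 1838, 1588 and 2384, and 7355 and 3528. All 4 genes were thus higher without overlap. The log2 fold changes against wild type were 1.07 for *Tuba1a* (limma adjusted p = 0.124), 0.84 for *Tuba1b* (0.196), 1.02 for *Tubb5* (0.125) and 1.12 for *Tubb3* (0.126).

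These 4 values depended on the scaling. With the trend of each library with GC content removed, all 4 were called higher, with *Tuba1a* at 1.02 (limma adjusted p = 0.0393), *Tubb5* at 1.02 (0.0369), *Tubb3* at 1.00 (0.0471) and *Tuba1b* at 0.74 (0.0999). In that fit *Tubb4b* was also called, at -0.79 (0.099). With each library scaled to the same total, all 4 were called higher and *Tubb2a* was no longer called lower, but the median of all genes then moved from -0.0257 to 0.346 and 5778 genes were called higher against 4791 lower, where 2712 and 5466 were called as deposited. Without N6, *Tuba1a* (1.45), *Tubb3* (1.65) and *Tubb5* (1.29) were called higher. When *Tuba1a*, *Tuba1b* and *Tuba1c* were summed into 1 row, because they share these windows, the log2 fold change was 0.53.

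The 3 most abundant isotypes did not pass the test in either direction. *Tubb4b* had 67738 and 33876 normalized counts in *10xBulge*, a log2 fold change of -0.70 against wild type (95% confidence interval -1.89 to 0.50, limma adjusted p = 0.365). *Tuba3a* had 86245 and 47602 for the *WT* pair, 47095 and 53491 for *10xPerf* and 72895 and 31358 in *10xBulge* (-0.42, interval -1.65 to 0.81, limma adjusted p = 0.611). *Tuba3b* had 74729 and 38379, 47501 and 53084, and 73000 and 35089 (-0.08, interval -1.29 to 1.13, limma adjusted p = 0.931). In all 3 the libraries of the genotypes overlapped, and N6 was below N5, by 1.22 on the log2 scale for *Tuba3a*. Falls of the size seen in *Tuba4a* and *Tuba8* lay outside these intervals.

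**Figure D2:**
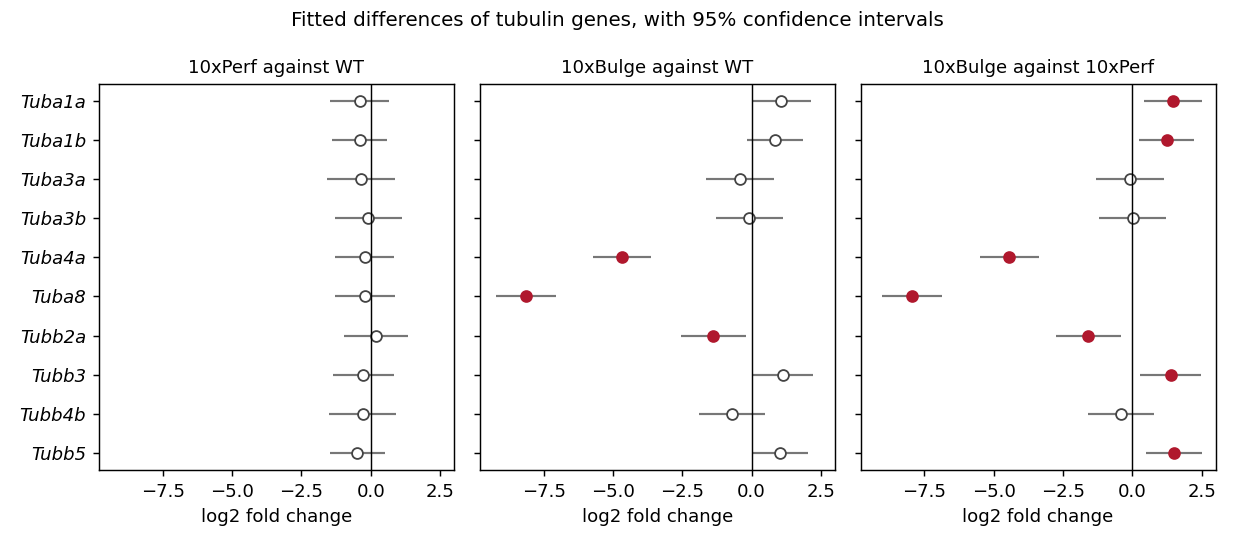
Log2 fold change of each tubulin gene in the 3 comparisons, with its 95% confidence interval as a line. Filled points have an adjusted p under 0.1. No gene was called in *10xPerf* against *WT*, *Tuba8* (-8.14), *Tuba4a* (-4.66) and *Tubb2a* (-1.38) were lower in *10xBulge* against *WT*, and *Tubb5*, *Tuba1a*, *Tubb3* and *Tuba1b* were called higher in *10xBulge* against *10xPerf*, and against *WT* with library totals or with the GC trend removed but not as deposited.

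Between the knock-in lines, *10xBulge* against *10xPerf* compares mismatched with matched sites at equal number. Here 4 members rose and 3 fell, against 12.9% of all genes called higher and 24.1% called lower. The same 7 did not overlap between the libraries, where 30.7% of all genes were higher and 35.3% lower without overlap. This comparison shares its *10xBulge* libraries with the one above. *Tubb5* rose by 1.5 (standard error 0.45, limma adjusted p = 0.0342), *Tuba1a* by 1.47 (0.0439), *Tubb3* by 1.39 (0.0626) and *Tuba1b* by 1.24 (0.0662). The call of all 4 was lost without N3, the lower *10xPerf* library for each, and without N5, and *Tubb3* also lost it without N4. With *Tuba1a*, *Tuba1b* and *Tuba1c* summed, the value was 0.84 (limma adjusted p = 0.202). *Tuba8* had a log2 fold change of -7.94 (limma adjusted p = 5.69e-06), *Tuba4a* of -4.44 (9.72e-05) and *Tubb2a* of -1.58 (0.0488). The *Tubb2a* call was lost without N3, without N4 and without N6.

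Shares within a library do not depend on how libraries are scaled to each other. Per transcript length, *Tuba3a* and *Tuba3b* together made up 82.0% of the summed alpha members in N1 and 81.1% in N2, 83.5% and 80.5% in *10xPerf*, and 84.6% and 80.0% in *10xBulge*. The 3 genotypes overlapped in this share. The rest of the alpha share was divided differently. *Tuba8* held 7.43% and 6.56% in wild type and 0.0265% and 0.0329% in *10xBulge*, and *Tuba4a* went from 4.46% and 3.50% to 0.128% and 0.280%. *Tuba1a* and *Tuba1b* together held 6.14% and 8.85% for the *WT* pair, 5.42% and 8.13% for *10xPerf* and 15.2% and 19.7% for *10xBulge*. *Tuba1c*, which shares windows with both, is not part of the summed alpha members. It had 8289 and 4337 normalized counts for the *WT* pair and 3425 and 2841 in *10xBulge*. The shares thus do not account for reads split between *Tuba1c* and these genes. In *10xBulge*, the sum of *Tuba1a*, *Tuba1b* and *Tuba1c* was 0.53 above wild type on the log2 scale (limma adjusted p = 0.425).

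By their last codon, the 2 alpha members without the terminal tyrosine codon made up 11.9% and 10.1% of the alpha members in wild type and 11.0% and 11.4% in *10xPerf*. In *10xBulge* they made up 0.155% and 0.313%, so that 99.8% and 99.7% of the alpha members per length ended with the TAC codon.

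Among the beta members *Tubb4b* held 93.3% and 92.2% for the *WT* pair, 93.6% and 92.3% for *10xPerf*, and 81.7% and 79.0% in *10xBulge*. *Tubb5* held 3.72% and 4.65%, 3.20% and 4.21%, and 10.3% and 13.6%, and *Tubb3* 2.28% and 2.52%, 2.25% and 2.65%, and 7.59% and 7.04%. The *10xBulge* libraries were apart from the other 4 for each of these 3 genes. *Tubb2a* held 0.67% and 0.586% for the *WT* pair, 0.929% and 0.843% for *10xPerf*, and 0.351% and 0.326% in *10xBulge*, without overlap between genotypes. The shares were not tested, as 2 libraries against 2 cannot pass an exact test. The summed level per kb of the alpha members was 1.72 and 1.68 times that of the beta members for the *WT* pair, 1.83 and 1.69 for *10xPerf* and 2.04 and 1.89 in *10xBulge*.

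**Figure D3:**
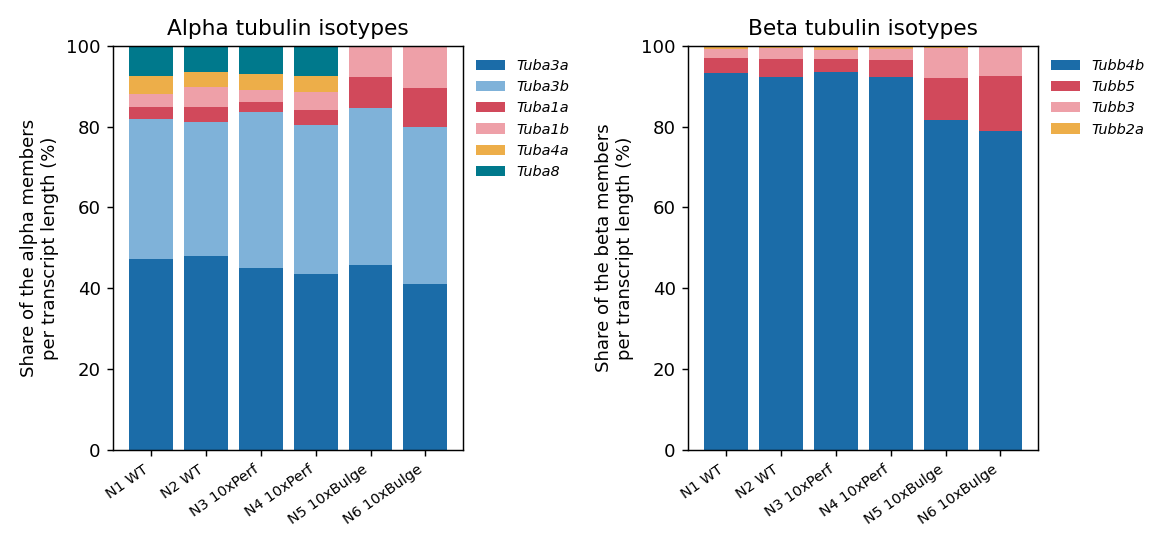
Share (%) of each gene in the summed normalized counts per transcript length of the 6 alpha members (left) and the 4 beta members (right), with 1 stacked bar for each library. In N5 and N6 of *10xBulge*, *Tuba8* and *Tuba4a* are too small to see, *Tuba1a* and *Tuba1b* take 15.2% and 19.7%, and *Tubb4b* falls to 81.7% and 79.0% of the beta members.

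Levels of several cell type markers also differed in *10xBulge*. As background for the counts below, 23.0% of all genes were called lower and 11.4% higher in *10xBulge* against wild type. The 10 spermatid genes (*Prm1*, *Tnp1* and others) summed to between 550016 and 770282 normalized counts in the *WT* and *10xPerf* libraries and to 2592 and 1317 in *10xBulge*, and 10 of 10 were called lower, with none at 0 in any library. The 10 Sertoli cell genes summed to between 21574 and 32599 in the former and to 71299 and 54012 in *10xBulge*, where 6 of 10 were called higher than in wild type. The 6 Leydig cell genes (4 of 6 higher), the 6 macrophage genes (6 of 6 higher) and the 8 spermatogonial genes (1 higher, 1 lower) had higher sums in *10xBulge*, and the 10 spermatocyte genes overlapped, with sums from 29803 to 51673 over all libraries and 1 called higher. None of the 5 peritubular or 5 endothelial genes was called, and no marker was called in *10xPerf* against wild type. The part of these cell types in the tubulin values was not tested.

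The other tubulin genes were measured in the same table, of which 8 are listed and 6 could be tested. *Tubb6*, a beta tubulin of many tissues, had 1559 and 1300 normalized counts for the *WT* pair, 1191 and 1198 for the *10xPerf* pair, and 470 and 202 for the *10xBulge* pair. It fell by 2.21 on the log2 scale against wild type (standard error 0.47, limma adjusted p = 0.0077) and kept that call in each alternative. *Tuba1c* had 8289 and 4337, 4973 and 5927, and 3425 and 2841, so it lay below wild type in both *10xBulge* libraries while its close relatives *Tuba1a* and *Tuba1b* lay above. Its log2 fold change was -0.94 (limma adjusted p = 0.144), and it was called lower with the upper quartile (-1.08, 0.0821), the trimmed mean (-1.08, 0.0959) and the GC trend removed (-1.06, 0.0279), and without N2 (-1.41, 0.0678).

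*Tube1*, the epsilon tubulin of centrioles, rose from 187 and 231 to 348 and 601 (log2 fold change 1.13, limma adjusted p = 0.0873), a call that was lost without any 1 of N1, N2, N3, N4 and N6. *Tubd1*, the delta tubulin of centrioles, had 734 and 943 for the *WT* pair, 1296 and 1760 for *10xPerf* and 1581 and 1595 in *10xBulge*, and was not called against wild type for either line (limma adjusted p = 0.833 and 0.109). For *10xBulge* it was called higher after removal of the GC trend (0.97, 0.041) or scaling to library totals (1.32, 0.0232). *Tubal3*, a distant alpha tubulin, had 14.7 and 19.7, 57.4 and 43.9, and 11.2 and 6.62, and was called lower in *10xBulge* against *10xPerf* (-2.41, limma adjusted p = 0.0148). *Tubb2b* stayed under 40 normalized counts and overlapped. *Tubb1*, the platelet beta tubulin, and *Tubb4a*, a brain beta tubulin, did not exceed 4.55 in any library and were not tested.

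Beyond the tubulins, 12 lists of genes that fold, nucleate, modify or sever tubulin and of the other tubulins held 87 genes, of which 80 were tested. Of the 80, 0 were called in *10xPerf* against wild type, with 1 at an unadjusted p under 0.05 (share of all genes not given). In *10xBulge* against wild type 11 were called higher and 19 lower, or 13.8% and 23.8%, which is near the share over all genes of 11.4% and 23.0%. Most of the lower calls were in the lists of enzymes that modify the C-terminal tail.

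All 3 glycylases fell. These enzymes add glycine to the tails of axonemal tubulin, with *Ttll3* and *Ttll8* starting the side chains and *Ttll10* elongating them. *Ttll8* had 5305 and 4730 normalized counts for the *WT* pair, 6296 and 4327 for the *10xPerf* pair, and 77.8 and 44.8 for the *10xBulge* pair (-6.38 on the log2 scale with a standard error of 0.43, limma adjusted p = 9.91e-06). *Ttll10* went from 22873 and 10107 to 348 and 69.2 (-6.60, limma adjusted p = 0.000116), and *Ttll3* from 3677 and 1830 to 186 and 149 (-3.95, limma adjusted p = 0.00023). For each of the 3 both *10xBulge* libraries lay below all 4 others.

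Of the 13 genes of the polyglutamylation list, which add glutamate chains or are subunits of the enzyme that does, 7 fell and 0 rose. *Ttll7*, a polyglutamylase acting on beta tubulin, had 1797 and 3012 normalized counts for the *WT* pair, 3934 and 3729 for the *10xPerf* pair, and 269 and 284 for the *10xBulge* pair (log2 fold change -3.07, limma adjusted p = 0.000422). *Ttll9* went from 3213 and 3334 to 763 and 347 (-2.67, limma adjusted p = 0.00201). *Ttll13*, an elongating polyglutamylase, went from 12409 and 17113 to 5474 and 2238 (-2.06, limma adjusted p = 0.0146).

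*Ttll2* had 620 and 679 in wild type and 5.41 and 0.961 in *10xBulge*, the last being about the worth of 1 read. Its log2 fold change of -7.52 (limma adjusted p = 1.95e-05) therefore depended on the pseudocount, and was -5.66 with a pseudocount of 10. The other called members of the list, named after their values were seen, were *Tpgs2* (-1.53), *Ttll6* (-1.67) and *Ttll11* (-1.71). In the list of the enzymes that shorten the chains, 1 of 6 was called, *Agbl1*, at 51.2 and 53 in wild type and 17.3 and 22.3 in *10xBulge* (limma adjusted p = 0.0798), which was lost without any 1 of N1 to N5.

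The tyrosination cycle moved in both directions. *Ttl*, the ligase that restores the final tyrosine of alpha tubulin, rose from 52.7 and 87.3 normalized counts for the *WT* pair to 274 and 215 for the *10xBulge* pair, while the *10xPerf* pair was at 67.0 and 120 (log2 change 1.83, limma adjusted p = 0.0261). The vasohibins, which remove the tyrosine together with their partner *Svbp*, fell. *Vash2* had 6217 and 4357 in wild type and 632 and 477 in *10xBulge* (-3.24, limma adjusted p = 0.000261). *Svbp* had 3969 and 3096 and then 1287 and 769 (-1.82, limma adjusted p = 0.0109), and *Vash1* 452 and 308 and then 128 and 72.6 (-1.94, limma adjusted p = 0.0129). All 4 genes of the list that were tested were called. *Ttl* and *Vash1* lost the call without N1, where their log2 fold changes were 1.47 (limma adjusted p = 0.182) and -1.67 (0.119).

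In the acetylation list, *Atat1*, which acetylates alpha tubulin inside the microtubule, fell from 2934 and 1606 to 759 and 712 (log2 fold change -1.56, limma adjusted p = 0.0235, lost without N1). *Hdac6*, a deacetylase of tubulin, rose from 4743 and 2903 to 10765 and 7367 (1.26, limma adjusted p = 0.0564). Its call was lost without N2 (0.91, 0.208), N3 (0.122), N4 (0.123) or N5 (0.99, 0.179), and with only both genotypes fitted (0.121). *Sirt2*, another deacetylase of tubulin, had 6698 and 3594 in *10xBulge* against 7950 and 5216 and was not called.

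**Figure D4:**
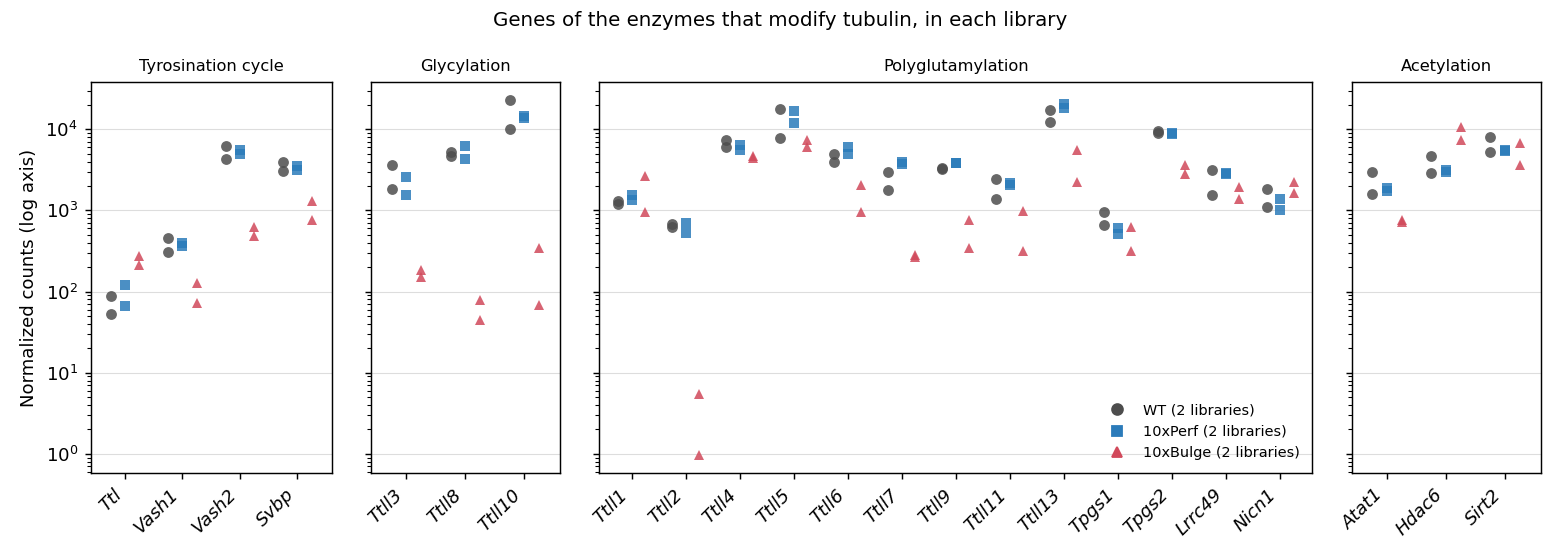
Normalized counts (log axis) of genes of the tyrosination cycle, glycylation, polyglutamylation and acetylation, with 1 point for each library. The *10xBulge* points lie below the other 4 libraries for *Ttll3*, *Ttll8* and *Ttll10* and for *Vash1*, *Vash2* and *Svbp*, and above them for *Ttl* and *Hdac6*.

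The genes that fold and nucleate tubulin moved less. Of 15 genes of the cytosolic chaperonin and of prefoldin, 3 were called higher, *Cct8* (log2 fold change 1.43), *Vbp1* (1.45) and *Pfdn2* (1.07), and 0 lower. Of 10 genes of the gamma tubulin ring, the nucleator of microtubules, *Tubgcp5* (1.27) and *Tubgcp3* (1.15) rose and *Mzt2* (-1.26) fell. Of 8 tubulin cofactor genes, which assemble the heterodimer, *Arl2* fell (-1.16). *Ttc5*, which recognises nascent tubulin chains in the decay of tubulin mRNA, rose from 898 and 780 to 1805 and 1626 (1.03, limma adjusted p = 0.0722), a call that was lost whichever of the 6 libraries was left out (adjusted p from 0.109 to 0.173) and with the trimmed mean (0.105), only both genotypes fitted (0.115) or no mean-variance trend (0.108). Of the 4 stathmin genes, whose products bind free tubulin, 1 could be tested and it was not called. Of 9 severing genes, *Fignl2* (1.30) and *Katnbl1* (1.31) rose. The adjusted p of the called genes of these lists ranged from 0.0548 to 0.0978.

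Of the 27 named genes of the lists that were called in *10xBulge* against wild type, 10 kept the call in every alternative that tested them: *Tubb6*, *Vash2*, *Svbp*, *Ttll2*, *Ttll7*, *Ttll9*, *Ttll13*, *Ttll8*, *Ttll10* and *Ttll3*. The other 17 lost it in at least 1. All genes named from the folding, nucleating and severing lists were among these 17, and leaving out N1 was enough to lose the call for each of them.

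The genes whose pattern over the 6 libraries was most like that of 3 members were found by the root mean square difference of centred log2 values among 17549 other protein-coding genes. For *Tuba3a* they were *Dus2* (0.046), *Trafd1* (0.0738) and *Taf6* (0.0774), with *Trafd1* at 20228 and 11743 normalized counts for the *WT* pair, 11975 and 12675 for the *10xPerf* pair, and 16772 and 6788 for the *10xBulge* pair. For *Tubb4b* they were *Mus81* (0.0712), *Gdf9* (0.074) and *Cstf1* (0.0771). For *Tubb3* they were *Gpr176* (0.0656), *Ifi30* (0.0709) and *Sqstm1* (0.0816), with *Sqstm1* at 6080 and 3157, 3175 and 4609, and 14419 and 6504. As the patterns of these 3 members include the gaps between N1 and N2 and between N5 and N6, the likeness covers those gaps too.

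Promoters were searched for 4 motifs on both strands, namely the CCAAT box, the TATA box (letters TATAAA), the cyclic AMP response element (letters TGACGTCA) and the GC box (letters GGGCGG), over the 300 bases from 250 before to 50 after the RefSeq start of each gene on GRCm38.p6. All 10 members had a promoter of that length. Of CCAAT, *Tubb4b* held 5 matches, *Tuba3a* 3, *Tuba3b* 2, *Tubb5* 2, *Tuba1a* 1 and *Tubb3* 1, and *Tuba1b*, *Tuba4a*, *Tuba8* and *Tubb2a* held 0. Of all 32851 promoters, 37.4% held CCAAT at least once. GGGCGG was found in 8 members, all but *Tuba3b* and *Tuba8*, and in 35.7% of all promoters. TATAAA was found in *Tubb2a* and *Tubb4b* and in 13.6% of all promoters, and TGACGTCA in *Tubb2a* and in 1.79%. These matches describe letters in this window.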

How the data were processed

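Testis RNA-seq libraries of wild-type, *10xPerf* and *10xBulge* mice were analysed, 2 per genotype. The MILI and MIWI immunoprecipitation libraries are not analysed here. The authors assigned single-end reads to GRCm39 with the Ensembl annotation by salmon, with its GC correction, and scaled the gene counts between libraries with DESeq2, so the deposited values are a signal and not whole reads. The deposited log2 fold changes and adjusted p-values for either knock-in against wild type, and the mean over all libraries, were not used.

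The 23782 genes reaching 10 in 2 or more libraries were retained. Genotype effects on log2(value + 1) were estimated from all 6 libraries by limma 3.58.1 (R 4.3.3), allowing a mean-variance trend. P-values were adjusted over all genes tested. The fit was tested on simulated data. The members and lists were chosen with earlier results of these data known. Named genes are the members, every other tubulin in the table, up to 4 genes per list with the smallest p in *10xBulge* against wild type whose libraries do not overlap, any list gene called in *10xPerf* against wild type (there was none), and the 3 genes nearest in pattern to *Tuba3a*, *Tubb4b* and *Tubb3*.

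Lengths, GC content and windows were taken from the longest GENCODE vM21 transcripts on GRCm38, and coding ends and promoters from RefSeq on GRCm38.p6. That build differs from the one used for the counts, so its coordinates serve only to place the genes. Of 87 list genes 85 were found by symbol. Some items are not reported here. Alternatives were other scalings, filters, pseudocounts and thresholds, a fit of only both genotypes, no trend, removal of the GC trend (loess, span 0.3), summed near-identical isotypes and leaving out each library. Depth was 41.1 to 61.6 M reads, and the 3-read floor reflects counting error alone. Figures were drawn with matplotlib 3.10.9 in Python 3.11.15.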

Additional observations from a re-analysis of the deposited data

How the results depend on the processing

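No paired analysis was possible because the labels N1 to N6 link no library of a genotype to a library of another. *Tuba8* and *Tuba4a* kept direction and call in both *10xBulge* comparisons in all 12 settings and 6 leave-outs. Over the members' log2 fold changes, the settings other than leave-outs kept direction and call for 333 values, lost a call for 9, gained one for 9 and changed sign for 9. The leave-outs kept both for 142 values, lost a call for 16, gained one for 3 and changed sign for 19. The cause of the changes was not tested.

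In *10xPerf* against wild type, genes called higher and lower numbered 111 and 117, and 73 and 77 with library totals, 44 and 53 when every library had to reach 10, 40 and 65 with a pseudocount of 0.1, 214 and 190 with only both genotypes fitted, and 63 and 72 at an adjusted p under 0.05. Leaving out a library gave 11 to 204 and 10 to 186. In *10xBulge* against wild type, 4 members were higher using library totals, as were 4 after removing the GC trend, and 0 to 3 without a library. All genes higher and lower were 5778 and 4791 with library totals and 2599 and 2926 when every library had to reach 10. Genes called higher were 1512 with only both genotypes fitted, 1370 at an adjusted p under 0.05, and 636 to 2858 without a library. The member median went from -0.82 to 0.32. In *10xBulge* against *10xPerf*, 2 members were higher at an adjusted p under 0.05 and 0 to 4 without a library. All genes higher and lower were 5108 and 5206 with library totals and 2850 and 3064 when every library had to reach 10, 1725 were higher at an adjusted p under 0.05, and leave-outs gave 418 to 3286 and 3730 to 5812. The member median went from -0.6 to 0.54.

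Signs changed only for values that were not called. With library totals, *Tuba3b* was 0.04 in *10xPerf* and 0.30 in *10xBulge* against wild type, and *Tuba3a* 0.18 in *10xBulge* against *10xPerf*. With the GC trend removed, *Tuba3b* (0.24) and *Tubb3* (0.15) changed sign in *10xPerf* against wild type, and *Tuba3b* (-0.43) in *10xBulge* against *10xPerf*, where *Tuba3b* was also -0.10 with the upper quartile, -0.11 with the trimmed mean and -0.03 with isotypes summed. Without a library, log2 fold changes in *10xPerf* against wild type ranged from -0.82 to 0.02 for *Tuba1a*, -0.79 to 0.0 for *Tuba1b*, -0.78 to 0.08 for *Tuba3a*, -0.57 to 0.39 for *Tuba3b*, -0.84 to 0.39 for *Tuba4a*, -0.73 to 0.33 for *Tuba8*, -0.32 to 0.72 for *Tubb2a*, -0.62 to 0.08 for *Tubb3* and -0.73 to 0.14 for *Tubb4b*. In *10xBulge* against wild type they ranged from -1.03 to 0.19 for *Tuba3a*, -0.61 to 0.45 for *Tuba3b* and -0.02 to 1.38 for *Tubb2b*. In *10xBulge* against *10xPerf* they ranged from -0.68 to 0.54 for *Tuba3a*, -0.52 to 0.54 for *Tuba3b* and -0.9 to 0.1 for *Tubb4b*. A leave-out leaves a genotype with 1 library, which is assumed to vary like the others.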

Other observations

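*Tubb4b-ps1*, a processed pseudogene of *Tubb4b*, was singled out after its values were seen. It had 1326 and 848 normalized counts for the *WT* pair, 1387 and 1771 for the *10xPerf* pair, and 10.9 and 2.92 for the *10xBulge* pair, so both *10xBulge* libraries were far below the other 4. *Tubb4b* itself overlapped between the genotypes. Of the 100-base windows of the *Tubb4b* transcript, 27.4% are also found in *Tubb4b-ps1*, so reads can be split between the 2 genes.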
